A study of Mus musculus with 5 samples.

Results

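ANP32E regions were selected at promoters that hold no CpG island and whose ANP32E signal stayed within 1.5-fold between sham-operated mouse hearts and hearts under pressure overload. The selection took regions of the ANP32E table with a CpG island count of 0. It also required a listed gene start within 1000 bp of the region's middle, or within the region, and a ratio of the average signals, (TAC + 1)/(sham + 1), within 1.5-fold in either direction. This gave 393 regions with 426 genes out of 8444 ANP32E regions (4.65%), or 8.39% of the 4685 ANP32E promoter regions. Of the 542 ANP32E promoters without a CpG island, 72.5% were steady in this sense, 133 were lower in TAC and 16 were higher.

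The hearts were whole hearts of male C57BL/6 mice aged 12 weeks. Mice had either a sham operation or transaortic coarctation (TAC), a constriction of the aorta that raises the pressure load on the left ventricle, for 4 days. Chromatin immunoprecipitation with sequencing used an antibody to H2A.Z or to ANP32E, with 1 library per antibody and condition. A further library was input DNA from pooled heart. The labels do not state how many hearts went into each immunoprecipitation.

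H2A.Z is a variant of histone H2A that sits in nucleosomes flanking active and poised gene starts. ANP32E is a chaperone that binds H2A.Z and removes it from nucleosomes, and it also belongs to a family of inhibitors of protein phosphatase PP2A. CpG islands are stretches of DNA in which CpG dinucleotides have not been depleted, and they cover the starts of most housekeeping genes, whereas the starts of many tissue-restricted genes lie outside them.

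The following promoters are printed because the results below turn on them. RefSeq (GRCm38.p6, the assembly known as mm10) provided the letters, which run 5′ to 3′ on the gene's own strand from 250 bases before the annotated start to 30 bases after it. Capitals mark motif matches found on either strand. The first group comprises Ankrd23 (chr1:36535710-36535989, minus strand), the promoter with the largest H2A.Z difference, Ldb3 (chr14:34588652-34588931, minus strand), and Myh6 (chr14:54966578-54966857, minus strand), which lacked an H2A.Z region. In Ankrd23 the capitals mark a GC box (GGGCGG, here on the opposite strand) 137 bases before the start and an MCAT element (CATTCC) 120 bases before it. In Ldb3 they mark an AP-1 motif (TGANTCA) 95 bases before the start and a CArG box 35 bases before it. In Myh6 they mark an MCAT element on the opposite strand, 206 bases before the start, and a TATA box (TATAAA) that begins 1 base after the annotated start.
Ankrd23: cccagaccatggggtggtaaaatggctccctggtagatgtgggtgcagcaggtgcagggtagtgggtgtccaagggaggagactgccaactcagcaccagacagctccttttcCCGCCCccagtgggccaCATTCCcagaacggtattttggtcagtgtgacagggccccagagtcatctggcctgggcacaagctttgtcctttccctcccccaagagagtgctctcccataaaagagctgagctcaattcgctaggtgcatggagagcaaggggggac
Ldb3: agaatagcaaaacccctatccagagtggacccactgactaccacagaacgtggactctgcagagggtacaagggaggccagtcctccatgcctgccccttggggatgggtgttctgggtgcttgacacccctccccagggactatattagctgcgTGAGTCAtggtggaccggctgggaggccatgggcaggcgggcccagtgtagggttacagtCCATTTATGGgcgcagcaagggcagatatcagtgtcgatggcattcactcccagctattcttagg
Myh6: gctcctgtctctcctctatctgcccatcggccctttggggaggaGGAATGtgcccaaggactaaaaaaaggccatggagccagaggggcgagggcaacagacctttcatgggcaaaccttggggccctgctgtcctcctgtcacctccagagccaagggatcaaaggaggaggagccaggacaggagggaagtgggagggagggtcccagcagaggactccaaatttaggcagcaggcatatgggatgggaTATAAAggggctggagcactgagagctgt

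Gtf2a1 (chr12:91590458-91590737, minus strand) was among the strongest ANP32E promoters, and its window is rich in CpG. Capitals mark an ETS motif (CCGGAAG) 26 bases before the start and an E-box (CACGTG) 13 bases before it. The promoters of B2m (chr2:122147437-122147716, plus strand), Irgm1 (chr11:48871391-48871670, minus strand) and Eif2ak2 (chr17:78882543-78882822, minus strand) represent the interferon-related genes. In them the capitals mark the interferon-stimulated response element, searched as GAAA, NN and GAAA in a row and abbreviated ISRE. The match begins 139 bases before the start in B2m and 18 bases after it in Eif2ak2. Irgm1 holds matches at 30 and 24 bases before the start that share one GAAA.
Gtf2a1: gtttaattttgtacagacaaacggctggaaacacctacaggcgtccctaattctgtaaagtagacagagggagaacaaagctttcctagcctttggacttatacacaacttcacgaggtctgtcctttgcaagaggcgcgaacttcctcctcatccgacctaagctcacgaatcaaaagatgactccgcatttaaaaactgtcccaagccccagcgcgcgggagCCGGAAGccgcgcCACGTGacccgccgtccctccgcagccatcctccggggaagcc
B2m: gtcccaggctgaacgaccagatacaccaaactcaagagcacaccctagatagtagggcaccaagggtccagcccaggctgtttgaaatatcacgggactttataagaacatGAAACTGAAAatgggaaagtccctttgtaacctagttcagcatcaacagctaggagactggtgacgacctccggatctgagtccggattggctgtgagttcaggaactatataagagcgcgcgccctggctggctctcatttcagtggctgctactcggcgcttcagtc
Irgm1: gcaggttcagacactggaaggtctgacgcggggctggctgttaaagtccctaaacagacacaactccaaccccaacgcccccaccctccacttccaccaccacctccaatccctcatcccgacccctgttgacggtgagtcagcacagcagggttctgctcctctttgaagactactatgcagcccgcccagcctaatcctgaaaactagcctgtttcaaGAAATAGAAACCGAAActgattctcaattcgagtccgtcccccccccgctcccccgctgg
Eif2ak2: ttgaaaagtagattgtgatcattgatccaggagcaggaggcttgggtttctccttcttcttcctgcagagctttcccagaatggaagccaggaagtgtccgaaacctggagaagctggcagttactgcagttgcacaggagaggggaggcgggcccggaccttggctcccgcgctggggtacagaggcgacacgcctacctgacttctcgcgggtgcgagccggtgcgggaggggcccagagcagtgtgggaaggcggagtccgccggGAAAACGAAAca

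ANP32E signal at these promoters was moderate and spanned a narrow range. The values below are average signals per region in the units deposited by the authors. In sham they ran from 4.46 to 13.7 with a median of 8.33, and in TAC from 4.19 to 11.8 with a median of 7.22. Peak signals had medians of 17 in sham and 15 in TAC. TAC was below sham at 286 promoters and above it at 107, and the median log2 ratio was -0.25. These values entered the selection and are a description. Over all ANP32E regions the median ratio was -0.26, with 23.8% of regions at least 1.5-fold lower in TAC and 4.96% at least 1.5-fold higher, so the promoters leaned toward lower TAC values as the whole table did. At the 3616 CpG island promoters chosen by the same ratio, the median ratio was -0.10.

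A steady average signal did not mean that the region was called in both libraries. An interval was called in both at 145 promoters (36.9%), in sham only at 196 (49.9%) and in TAC only at 52 (13.2%). At the steady CpG island promoters 54.6% were called in both. Promoters called in both libraries had median signals of 8.82 in sham and 8.19 in TAC. Those called in sham only had 8.35 and 6.21, and those called in TAC only had 6.85 and 8.38.

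**Figure D1:**
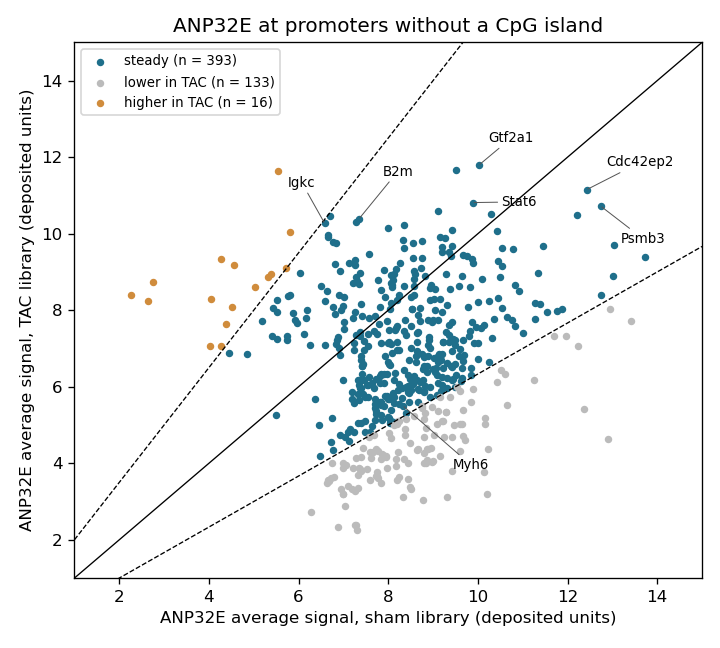
ANP32E average signal in the sham library (x axis) and the TAC library (y axis) at the 542 ANP32E promoters without a CpG island, 1 point per region, in deposited units. The solid line marks equal values and the dashed lines a 1.5-fold ratio either way; the 393 steady promoters fill the band between the dashed lines by construction, and 286 of them lie below the solid line.

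In the rankings of named genes here and below, promoters listing only predicted or numbered loci were left out. A230028O05Rik (12.2 and 10.5) and G530011O06Rik (12.8 and 8.40) were among the strong promoters left out for that reason. The 10 strongest of the remaining promoters included genes of basic cell machinery and of signalling. Cdc42ep2, an effector of the small GTPase Cdc42, had 12.4 in sham and 11.15 in TAC. Psmb3, a beta subunit of the proteasome, had 12.7 and 10.7. Gtf2a1, a subunit of the general transcription factor TFIIA, had 10.018 and 11.8. The first pair was higher in sham and Gtf2a1 was higher in TAC. Rapgef3, a cAMP-activated exchange factor for Rap (9.51 and 11.7), was also higher in TAC. Spag9, a scaffold of JNK signalling, was higher in sham (13.0 and 8.89), as was Snx15, a sorting nexin (11.4 and 9.67). The zinc finger gene Zfp46 (10.3 and 10.5) and Stat6, the transcription factor of interleukin-4 signalling (9.88 and 10.8), were close to equal. Shared promoters of Ranbp10 with Tsnaxip1 (13.0 and 9.70) and of n-Th8 with Trg1 (13.7 and 9.38) completed these 10, both higher in sham.

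The selection limit ran through a continuous distribution. Just inside it on the low side were Fastkd1, a mitochondrial RNA regulator (9.5 in sham and 6 in TAC), Zfp52 (8.07 and 5.05) and Snord118 (9.09 and 5.77). Just outside were Zfp13 (9.53 and 6), Zfp949 (9.15 and 5.75), the endothelial adhesion gene Pecam1 (8.22 and 5.10) and Pfdn1 (7.69 and 4.74). All of these were lower in TAC by about the limit itself. On the high side Wdr38 (6.71 and 10.5), Igkc (6.58 and 10.3), Vps41 (4.46 and 6.89) and Emilin1 (6.65 and 9.91) were just inside. Nfic (5.73 and 9.10), Slc25a20 (4.26 and 7.08), Ifit2 (5.39 and 8.94) and Pyroxd2 (5.31 and 8.87) were just outside. On the low side Fastkd1 and Zfp13 had nearly the same pair of values, whereas on the high side the promoters outside the limit had lower signals in sham than Wdr38, Igkc and Emilin1.

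By selection each region lay near or over a listed gene start, and distances were taken to the nearest such start. The median distance from the start to the region's middle was 18 bp (quartiles -152 and 191 bp). Of the middles 63.6% lay within 250 bp of a start, against 61.9% at steady CpG island promoters. Median length was 1583 bp, with a range from 773 to 5753 bp, against 1794 bp at steady CpG island promoters. Tmem204 (5440 bp), the region shared by Hrct1 and 5430416O09Rik (5416 bp), Zmynd8 (5302 bp) and Emilin1 (4744 bp) were among the longest. A start of more than 1 gene was listed for 33 regions (8.40%), and for 19.9% of steady CpG island promoters. By RefSeq biotype 341 belonged to protein-coding genes and 30 to lncRNAs. Chromosome 7 held 42 of them and chromosome 11 held 38.

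H2A.Z covered nearly all of these promoters. An H2A.Z region overlapped 387 of the 393 (98.5%), and 380 lay wholly inside it. At steady CpG island promoters the overlap was 99.6%, at the promoters without a CpG island that were lower in TAC it was 91.0%, and at other ANP32E regions without a CpG island it was 82.2%. The H2A.Z regions had a median length of 5053 bp, and 53 of the 387 held a CpG island although the ANP32E region within did not. Coverage around the start was taken over the 274 promoters that had both an H2A.Z region and a RefSeq start inside the ANP32E region. ANP32E covered 89.1% at 500 bp before the start and 86.1% at 500 bp after it. At 1000 bp before and after the start its coverage was 25.9% and 29.9%, where H2A.Z still covered 95.6% and 97.8%. The called ANP32E regions were thus narrower than the H2A.Z regions around them. Every start lay inside the ANP32E region by selection, and region limits do not show where within them a protein was bound.

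**Figure D2:**
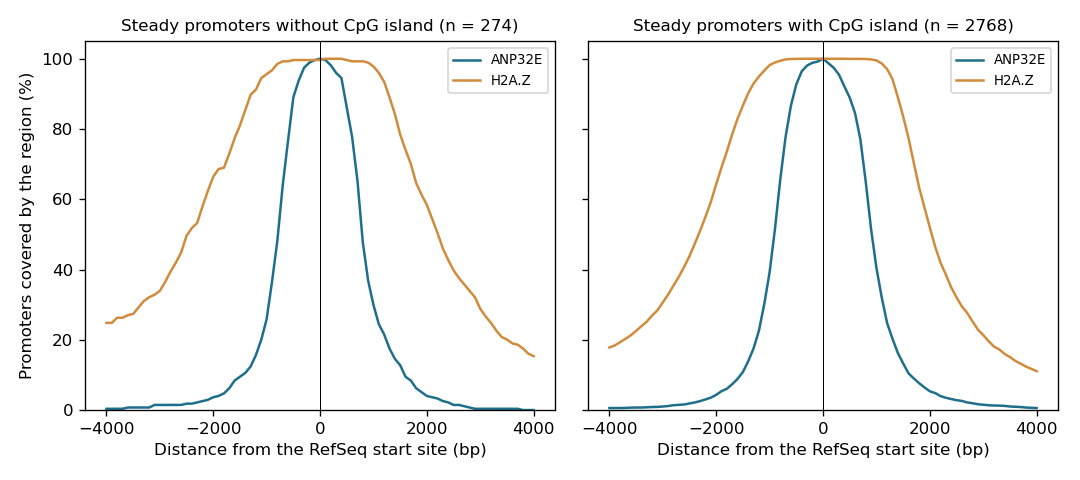
Share of promoters (y axis, %) whose ANP32E or H2A.Z region covers each distance from the RefSeq start site (x axis, bp; negative is upstream), for 274 steady promoters without a CpG island (left) and 2768 with one (right), all of which have an H2A.Z region. ANP32E coverage drops to 25.9% and 29.9% at 1000 bp on either side in the left panel, against 39.2% and 40.5% in the right panel, while H2A.Z coverage extends farther in both.

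The promoters with no H2A.Z region numbered 6, and they were not alike in ANP32E. Myh6, the main myosin heavy chain of the adult mouse ventricle, had 8.325 in sham and 5.506 in TAC. C1qtnf1, a secreted C1q/TNF-related protein, had 5.42 and 8.05. The promoter shared by Tctex1d4 and Btbd19 had 6.03 and 8.97. Myh6 was lower in TAC and the others were higher. The remaining 3 were Mir5109 (6.93 and 4.74), the immunoglobulin kappa constant gene Igkc (6.58 and 10.3) and G530011O06Rik on chromosome X (12.8 and 8.40).

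H2A.Z at these promoters hardly differed between the libraries, and its strength lay between those of the compared promoter sets. Its average signal had a median of 25.8 in sham (quartiles 21.6 and 30.7) and 26.3 in TAC. Steady CpG island promoters had 32.5 and 32.3, and the promoters without a CpG island that were lower in TAC had 21.9 and 21.5. The median log2 ratio was -0.0059 with an SD of 0.13 across the 387 promoters, and 184 lay above 0. No promoter was at least 1.5-fold higher and 1 was lower, against 1.73% and 3.92% of all 31098 H2A.Z regions. The same was seen at other ANP32E promoters: none was past the limit in either direction at the steady CpG island promoters (SD 0.10) or at the promoters without a CpG island that were lower in TAC (SD 0.19). The part of signal strength in the spread of these ratios was not tested. No test across animals was possible with 1 library per condition, so every difference describes these libraries alone. In whole tissue a change in cell composition and a change in occupancy per cell cannot be told apart.

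**Figure D3:**
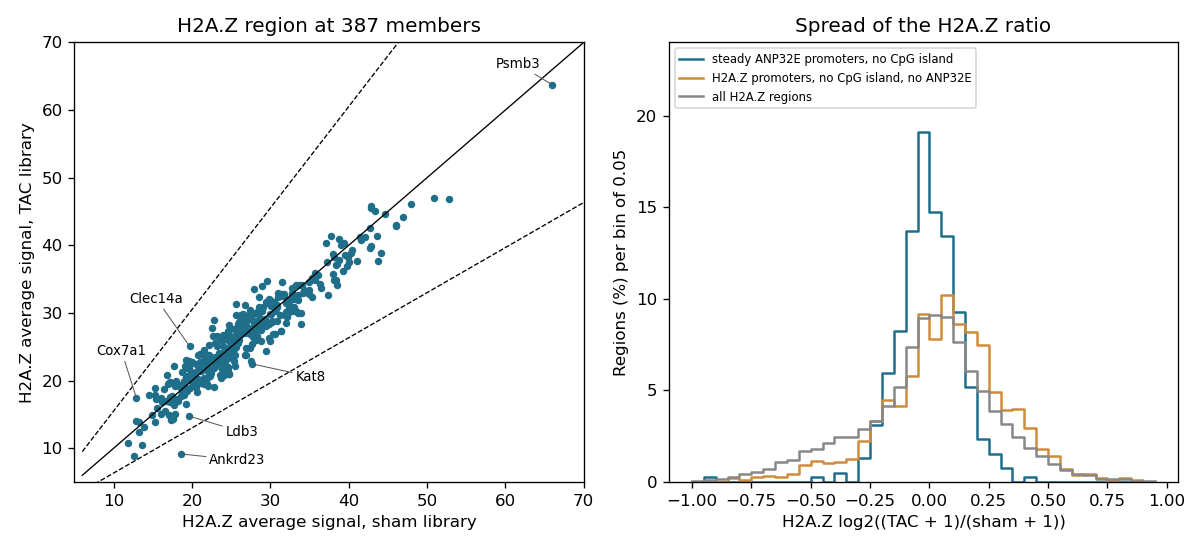
Left, H2A.Z average signal in the sham (x axis) and TAC (y axis) library of the H2A.Z region at each of the 387 promoters, with a solid line at equality and dashed lines at a 1.5-fold ratio. Right, the share of regions (%) per bin of the H2A.Z log2 ratio between -1 and 1 for the same promoters, for H2A.Z promoters without CpG island or ANP32E, and for all H2A.Z regions. The promoters cluster around 0 (SD 0.13, against 0.25 and 0.29 in the other sets, whose median H2A.Z signals were lower).

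The promoter outside the limit was that of Ankrd23, a stretch-responsive ankyrin repeat protein of the sarcomere (chromosome 1, 36534107 to 36536903). The H2A.Z signal was 18.6 in the sham library and 9.16 in the TAC library, a log2 ratio of -0.95, and ANP32E was 8.22 and 5.92. Its peak H2A.Z signal was 45 in sham and 23 in TAC, so both measures were lower in TAC. Mir1192 (12.6 and 8.85; -0.46) and Ldb3, a Z-disc protein (19.6 and 14.8; -0.39), followed. Lsmem1 (13.6 and 10.4), Kat8, a lysine acetyltransferase that acts on histone H4 (27.7 and 22.5), and Phkg1, the muscle phosphorylase kinase catalytic subunit (17.4 and 14.2), were next. Ankrd23 and Ldb3 had 3 and 6 CpGs in their 300-base RefSeq windows, and the observed to expected CpG ratio was 0.12 at Ankrd23.

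The promoters with the highest H2A.Z ratios included mitochondrial, endothelial and immune genes. Cox7a1, the heart and muscle form of a cytochrome c oxidase subunit, had 12.9 in sham and 17.4 in TAC (0.40). Elovl1, a fatty acid elongase, had 22.8 and 29.0 (0.34). Clec14a, an endothelial surface lectin, had 19.7 and 25.1 (0.34). All of them remained under 1.5-fold. Nod2, a sensor of bacterial cell wall fragments (17.7 and 22.2), Tmem154 (16.8 and 20.8) and the potassium channel gene Kcna5 (14.5 and 17.9) completed the 6 highest. ANP32E was lower in TAC at Cox7a1 (8.79 and 6.55), Nod2 (8.21 and 7.16) and Kcna5 (9.02 and 6.76). It was higher in TAC at Elovl1 (6.84 and 9.76), Tmem154 (5.51 and 7.94) and Clec14a (6.81 and 7.91).

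The strongest H2A.Z signal was at Psmb3, with 66.0 in sham and 63.8 in TAC. Snord118, a small nucleolar RNA gene, had 52.8 and 46.9. Lamb2, a laminin chain of basement membranes, had 46.0 and 42.9. All 3 were slightly lower in TAC. The shared promoter of Cnpy4 and Taf6 (46.1 and 43.1), Ttc30b (44.6 and 44.7) and the nuclear pore gene Nup85 (42.8 and 45.8) were the others of the 6 strongest. Each value is an average over the whole H2A.Z region. That region held 1 CpG island at Psmb3 (8043 bp) and 2 at Snord118 (18010 bp), and none at the others.

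ANP32E and H2A.Z levels were weakly related across the promoters. Spearman's coefficient was 0.26 in sham and 0.28 in TAC over 387 promoters, whose values come from the same libraries, and 0.31 in sham over 3602 steady CpG island promoters. The ratios of both proteins had a coefficient of 0.12 over the 387 promoters, whose range of ANP32E ratios the selection limits, and 0.19 over all 524 ANP32E promoters without a CpG island that had H2A.Z. Promoters called by ANP32E in both libraries had H2A.Z medians of 27.7 in sham and 27.6 in TAC. Those called in sham only had 24.8 in both, and those called in TAC only had 24.7 and 26.3. H2A.Z medians thus lay close to equal in the libraries also where the ANP32E interval was called in only one of them. Among promoters with an H2A.Z region, its ratio was above 0 at 32 of 50 called in TAC only. It was above 0 at 90 of 194 called in sham only and 62 of 143 called in both.

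Seen from the H2A.Z table, 2061 promoter regions had no CpG island, and 527 of them (25.6%) overlapped any ANP32E region. Those with ANP32E had H2A.Z medians of 24.2 in sham and 23.8 in TAC and a median length of 4777 bp. The 1534 without ANP32E had 15.99 and 16.7 and a median length of 3335 bp. With ANP32E, 0 were at least 1.5-fold higher and 1 was lower. Without it, 27 were higher and 19 were lower, where 1.31% of all 2061 were higher and 0.97% lower. The weaker signal of the second group moves with the wider spread of its ratios (SD 0.25 against 0.16), and its part in that spread was not tested.

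The promoter sequences were of intermediate CpG content. A RefSeq window of 300 bases with its start inside the region was at hand for 277 promoters. GC content had a median of 54.7%, against 62.3% in 2778 windows of steady CpG island promoters and 52.7% in all 32851 RefSeq windows. The median number of CpGs per window was 11, against 24 and 7. The median observed to expected CpG ratio was 0.53, against 0.83 and 0.38. On the window alone, 75 of the 277 (27.1%) passed a GC content of 50% and a ratio of 0.6, the usual base composition of an island, against 84.8% of steady CpG island promoters. Gtf2a1, printed above, was one of these, with 22 CpGs and a ratio of 1.02. At the other end Myh6 had 2 CpGs and a ratio of 0.083. H2A.Z in sham had a Spearman coefficient of 0.29 with the CpG ratio over 274 promoters, and mean ANP32E one of 0.12 over 277. The points of each relation share their libraries.

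**Figure D4:**
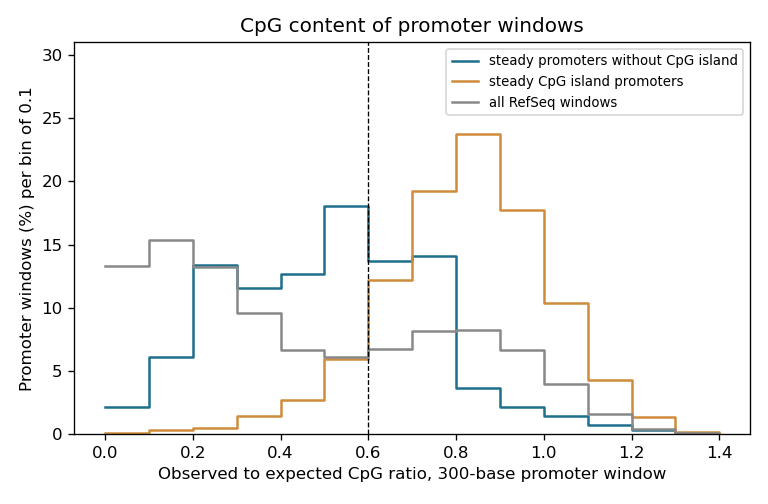
Distribution of the observed to expected CpG ratio (x axis) in 300-base RefSeq promoter windows, as the share of windows (%) per bin of 0.1, for 277 steady promoters without a CpG island, 2778 steady CpG island promoters and all 32851 windows. The dashed line marks 0.6; the first group spreads across it with a median of 0.53, between the medians of 0.38 for all windows and 0.83 for the CpG island promoters.

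Motif matches were counted on both strands, and a match describes letters and not a bound site. The GC box occurred in 46.6% of these windows, 72.0% of those of steady CpG island promoters and 35.7% of all windows. The ETS motif occurred in 13.0%, 23.8% and 8.86%, and the E-box in 7.94%, 11.9% and 7.15%. For these motifs of CpG-rich starts the promoters lay between both sets. TATA boxes occurred in 13.4% of them, 6.59% of CpG island promoters and 13.6% of all windows. The AP-1 motif occurred in 10.1%, 3.49% and 7.81%, and the cAMP response element (TGACGTCA) in 5.05%, 4.54% and 1.79%. For TATA boxes the promoters were near all windows, and for the cAMP response element near the CpG island promoters. CCAAT boxes occurred in 41.9%, 40.6% and 37.4%. The muscle elements were near their share of all windows: MCAT in 14.8% against 14.7%, MEF2 in 3.25% against 3.19% and the CArG box in 1.81% against 1.63%. CArG matches were found at Ldb3, Lmcd1, Myo1e, Rhoj and Selenbp1, and the MCAT matches included Ankrd23, Myh6, Pdlim3 and Ndufa9. The ISRE occurred in 19 of 277 windows (6.86%), against 2.12% and 3.44%, and in 4.44% at the promoters without a CpG island that were lower in TAC. That motif was added after the promoters' names had been seen, and 9 of the matches are at innate immune genes listed below, so the choice of motif favours its count.

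Of all 5496 genes with an ANP32E promoter, 426 (7.75%) had one of the promoters described here, and the lists below are counted on the same basis. Of 20 sarcomere genes with an ANP32E promoter, 5 (25%) were here, 7 had a promoter without a CpG island that was lower in TAC, and 7 a steady CpG island promoter. Besides Ankrd23, Ldb3 and Myh6 they were Pdlim3, a Z-disc protein, with ANP32E of 5.93 in sham and 7.76 in TAC, and Cryab, a small heat shock protein that binds desmin and titin, with 8.80 and 6.80. Pdlim3 was higher in TAC and the other 4 were lower. H2A.Z was 23.6 and 22.9 at Pdlim3 and 17.2 and 19.8 at Cryab. The 7 sarcomere genes outside the limit on the low side were Csrp3, Lmod3, Myl2, Myom1, Smyd1, Tnni3 and Ttn. In the stress-response list 3 of 24 genes were here, namely Ankrd23, Cryab and Hspb8 (ANP32E 8.45 and 6.02, H2A.Z 15.5 and 16). None of the 17 intercalated disc and costamere genes with an ANP32E promoter was among them.

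Calcium handling and ion channel genes gave 8 of the 19 (42.1%) that had an ANP32E promoter. Of the 19, 7 had a steady CpG island promoter and 3 a promoter without a CpG island that was lower in TAC. Promoters without a CpG island that were lower in TAC included those of Pln (ANP32E 8.775 and 3.044), Cacna1c (7.94 and 4.16) and Slc8a1 (7 and 3.19). Casq1, the calsequestrin of skeletal muscle, had ANP32E of 10.5 in sham and 8.05 in TAC. Jph2, which ties the T-tubule to the sarcoplasmic reticulum, had 8 and 5.20. S100a1, a calcium-binding enhancer of contractility, had 9.655 and 6.221. These 3 were lower in TAC, as was Kcna5. Gja1, the gap junction protein connexin 43 (7.29 and 7.35), the IP3 receptor gene Itpr1 (9.20 and 9.65), the inward rectifier gene Kcnj2 (7.20 and 7.80) and Fxyd1, phospholemman (8.25 and 8.39), were close to equal. H2A.Z stayed within 0.1 log2 units at 7 of the 8, Kcna5 excepted, and was 35.4 and 35.2 at S100a1 and 31.3 and 32.5 at Kcnj2.

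Lists of energy metabolism had shares between 2.70% and 4.71%, set beside 7.75% of all genes with an ANP32E promoter. Among fatty acid genes 1 of 31 was here, Fabp4, a fatty acid carrier of adipocytes and capillary endothelium (ANP32E 8.04 and 5.12, H2A.Z 16.5 and 18.8). Among genes of glucose use and the tricarboxylic acid cycle it was 1 of 37, the muscle glycogen phosphorylase Pygm (9.92 and 7.13, H2A.Z 19.0 and 20). Of the respiratory chain 2 of 46 were present, Cox7a1 and the complex I subunit Ndufa9 (8.16 and 6.36, H2A.Z 29.6 and 31.5). ANP32E was lower and H2A.Z higher in TAC at all 4. Among all the promoters, ANP32E was lower in TAC at 286 of 393 and H2A.Z was higher at 184 of 387. The H2A.Z log2 ratio at Cox7a1 was the highest among the 387, and at Fabp4, Pygm and Ndufa9 it was 0.18, 0.07 and 0.09. Mitochondrial carrier, import and ribosome genes gave 4 of 85, namely Tomm40l, Coq6, Mrpl16 and Timm10, with H2A.Z ratios from -0.20 to 0.11. Steady CpG island promoters held 26, 29, 38 and 71 of the genes in these lists.

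Lists of general cell machinery had shares between 1.64% and 5.56%. Cytosolic ribosomal proteins gave 1 of 61 (Rpl4), translation factors 1 of 40 (Eif3f), proteolysis and autophagy genes 3 of 54 (Psmb3, Psmb6 and Atg9a), and spliceosome and RNA-binding genes 1 of 43 (Mbnl2). The H2A.Z and PP2A list gave 1 of 29: Vps72, a subunit of the complexes that deposit H2A.Z, had ANP32E of 8.39 and 7.34 and H2A.Z of 27.1 and 27.4. Each of these lists was mostly at steady CpG island promoters. Insulin and growth signalling gave 1 of 26 (Mapk3), and cardiac regulators 2 of 35, among them Tef. None of the 34 immediate early genes with an ANP32E promoter was here, and 33 of them had a steady CpG island promoter. No smooth muscle gene (0 of 5) or replication-dependent histone gene (0 of 13) was present. The leukocyte and erythroid lists had no gene with an ANP32E promoter. The list of skeletal muscle, liver and neuronal genes gave Tnnt1, the slow skeletal troponin T (7.52 and 6.04), and the matrix and fibroblast list 2 of 15, Lama4 (8.13 and 8.94) and Lamb2 (7.28 and 8.87), which are basement membrane laminins and were both higher in TAC. Of 57 small RNA genes 5 were here, whose reads can be hard to place because such genes have near copies.

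Of the endothelial list 3 of 15 genes (20%) were present: the adhesion molecules Icam2 (ANP32E 8.03 in both libraries) and Esam (8.91 and 7.30), and the matricellular protein Sparcl1 (7.57 and 6.26). A wider endothelial list was compiled after the names of the promoters had been seen, so the choice of list favours its count. It held 18 of its 32 genes with an ANP32E promoter here, against 10 at steady CpG island promoters. They included the receptor gene Notch4 (7.90 and 9.04), the small GTPase Rhoj (6.95 and 8), Clec14a and Rapgef3, all higher in TAC, and the adenylyl cyclase Adcy4 (8.45 and 5.85) and the chemokine receptor Cxcr7 (9.21 and 6.49), lower in TAC. ANP32E medians over the 18 were 7.97 and 7.95. H2A.Z was above sham in TAC at 15 of them with a median log2 ratio of 0.05 and a range from -0.25 at Apold1 to 0.34 at Clec14a, against 184 of all 387 promoters. Of the defining endothelial markers Pecam1, Kdr and Tie1 had an ANP32E promoter, none of them here, and all 6 markers had an H2A.Z promoter.

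Genes of innate immunity and the interferon response were noticed among the names. A list compiled after the promoters' names had been seen counted 26 of its 48 genes with an ANP32E promoter here, 19 at steady CpG island promoters, 1 lower in TAC and 1 higher. That count, too, is favoured by how the list was made. The genes covered sensing, signalling and effector steps. Among sensors and their adaptors, the toll-like receptor gene Tlr4 had ANP32E of 8.17 in sham and 9.07 in TAC. Tlr3, the receptor for double-stranded RNA, had 7.15 and 4.90. Ticam1, the adaptor of both, had 9.63 and 6.15. Tlr4 was slightly higher in TAC, and Tlr3 and Ticam1 were lower.

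Among signalling genes, Irf9, the DNA-binding partner of the STAT proteins in the interferon response, had 10.5 in sham and 9.16 in TAC. The tumour necrosis factor receptor gene Tnfrsf1a had 7.25 and 9.18. Interleukin 15 (Il15) had 8.36 and 9.63, while its receptor chain Il15ra had 7.69 and 5.96. Ligand and receptor thus differed in opposite directions.

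Among effectors, B2m, the invariant chain of MHC class I molecules, had 7.35 and 10.4 and was the highest by ratio (0.45). The RNA-activated kinase gene Eif2ak2 had 9.21 and 7.17. Irgm1, an immunity-related GTPase, had 8.80 and 5.86. Psmb10, an immunoproteasome subunit, had 10.4 and 7.76, and Cd274, the checkpoint ligand PD-L1, had 8.2 and 6.95. Apart from B2m these were lower in TAC. The deaminase gene Apobec3 (7.84 and 8.53), the nuclease gene Trex1 (8.93 and 8.59), Ifitm2 (8.15 and 7.48) and Ifitm3 (7.38 and 8.17) were close to equal. Ifitm2 and Ifitm3, like the Slfn genes, have near copies, so the placement of their reads is uncertain. H2A.Z at the 26 promoters had medians of 24.4 in sham and 24.7 in TAC, with ratios from -0.19 at Ticam1 to 0.31 at Nod2 and 14 of 26 above 0. It was 32.2 and 30.0 at B2m, 36.4 and 33.6 at Irgm1, and 15.3 and 18.8 at Eif2ak2. A RefSeq window was at hand for 22 of the 26, and 9 held an ISRE: Irgm1, Slfn5, Slfn9, Apobec3, Eif2ak2, B2m, Gbp3, Ifitm2 and Ifitm3. That motif was chosen with these names in view. The leukocyte markers had no ANP32E promoter.

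**Figure D5:**
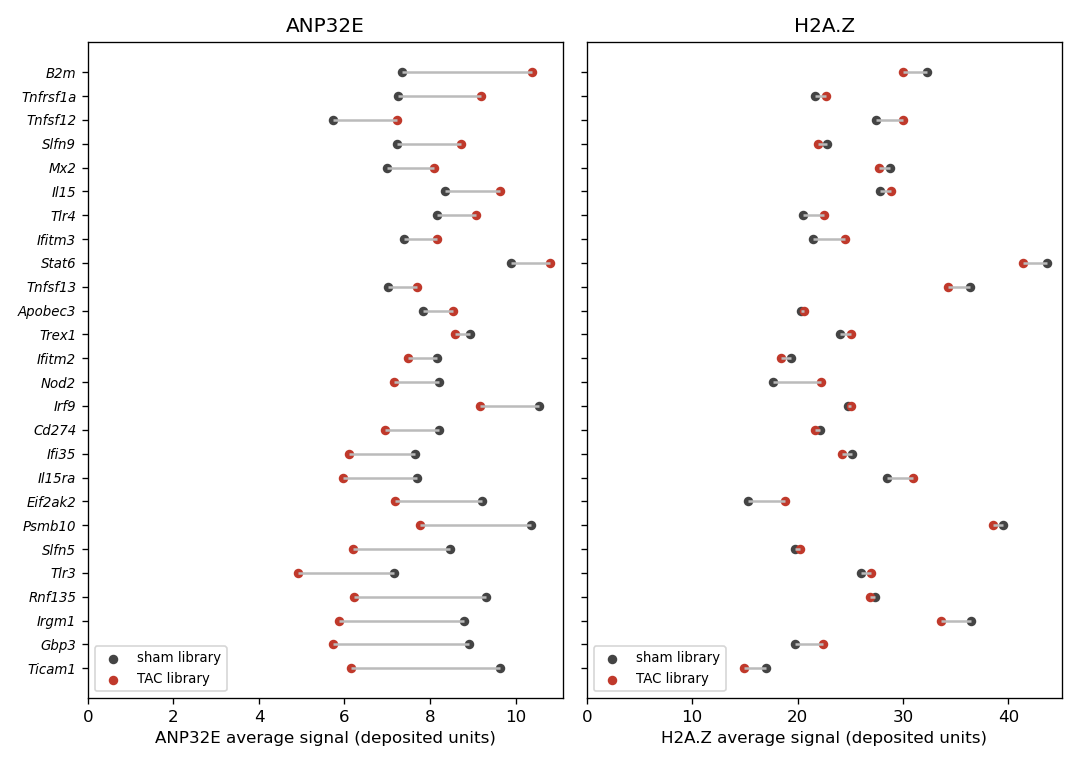
ANP32E (left) and H2A.Z (right) average signal in deposited units (x axes) at the 26 promoters of innate immune and interferon genes (y axis, ordered by the ANP32E ratio), with grey points for the sham library and red points for the TAC library. ANP32E ranges from B2m (7.35 to 10.4) at the top to Ticam1 (9.63 to 6.15) at the bottom, while the H2A.Z ratios run only from -0.19 to 0.31.

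Zinc finger genes were a further family noticed among the names. From a list of names also compiled after the promoters had been seen, 19 of 143 zinc finger genes with an ANP32E promoter were here, 96 had a steady CpG island promoter and 11 a promoter without a CpG island that was lower in TAC. Zfp260, a regulator described in cardiomyocytes, had ANP32E of 10 in sham and 6.73 in TAC and H2A.Z of 43.8 and 37.7. Zfp51 had 10.2 and 6.65 with H2A.Z of 34.3 and 33.4. Zfp354b had 6.13 and 7.37 with H2A.Z of 24.7 and 28.3. The first pair was lower in TAC for both proteins and Zfp354b higher for both. H2A.Z medians over the 19 were 29.1 and 28.6. Members of this family resemble each other in sequence, which can affect read placement.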

How the data were processed

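For each antibody the authors deposited 1 table of regions, merged from the intervals of both conditions. Per the file headers, each region holds an average and a peak signal per library, a called mark per library, a CpG island count and nearby genes with distances. Per the submitters' processing notes, BWA and SICER were the tools and mm10 the build; no versions are stated there. Depth scaling and the use of the input library are not stated either, so the depth behind each signal is unknown and no counting interval is printed.

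Signals were used as deposited, and coordinates are those of the tables. The ratio was log2((TAC + 1)/(sham + 1)), with a pseudocount of 1, which understates differences of weak regions. Counts of regions as higher or lower use a limit of 1.5-fold; for a named gene within the limit, higher or lower in TAC says only which library had the larger value. With 1 library per group there is no replicate check and no test. Each promoter took the H2A.Z region of longest overlap, from 1 bp. Promoter genes were matched to RefSeq by symbol (96.2%), and 89.2% of the 295 with a promoter window had a listed start within 100 bp of the RefSeq start. Windows ran from 250 bases before to 50 after the start, and 17 motifs were searched on both strands; motifs could overlap, and the extended ERR motif contains the plain one.

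The promoters, the 24 gene lists and the motifs were chosen with earlier results of these data known. Added after these data were seen were 3 lists (innate immune and interferon, wider endothelial, zinc finger), the ISRE motif and the restriction to promoters with no CpG island in the H2A.Z region or a window without island composition. Named genes were the 10 strongest promoters, the 4 nearest each side of the limit, the longest, the 6 highest and lowest H2A.Z ratios, the 6 strongest in H2A.Z, those without H2A.Z, and list members; 1 gene that this rule names is not reported here. Promoters listing only predicted or numbered loci were left out of these rankings. The procedure was tested on simulated data. Computation used Python 3.11.15 with pandas 2.3.3, numpy 2.4.6, matplotlib 3.10.9 and scipy 1.17.1.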

Additional observations from a re-analysis of the deposited data

How the results depend on the processing

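No paired analysis was possible because each antibody and condition had 1 library, and for the same reason no replicate could be left out. Of 34 alternative values, 5 were counted as moved and 29 as the same. The 29 include the 507 promoters and the median H2A.Z ratio by peak signal given below, which lie farther from the reported values. The number of promoters fell to 165 under a 1.2-fold limit, to 209 in the stronger 50% of ANP32E regions, and to 145 where both libraries were called, each of which admits fewer regions. It ran from 352 to 507 under the other definitions, and the 352 chosen by peak signal shared 314 with the reported set. The share called in both libraries was 56.3% in the stronger 50% of the promoters. With peak in place of average signal, 5 promoters were at least 1.5-fold higher in H2A.Z (Cyp2j9, Prim1, 2610008E11Rik, Vps41 and Eif3f). The share of all H2A.Z regions past the limit by peak signal was not counted, so these 5 have no background. The median H2A.Z log2 ratio by peak signal was 0.098 at the promoters. It was 0.093 over all H2A.Z regions and 0.0995 at steady CpG island promoters, so the shift was not particular to these promoters. The cause was not tested. The median H2A.Z ratio of the promoters ran from -0.02 to 0.01 under the other alternatives, so its sign is not settled. Depth is unknown, and small differences cannot be separated from counting error.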
